A study of Mus musculus with 2 samples.

Results

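Weakly accessible promoter intervals are regions of a genome-wide set of open chromatin that lie over the start of a protein-coding gene, its transcription start site (TSS), but hold few sequenced fragments for their length. Members were chosen by read density and are all autosomal intervals that overlap the 5′ end of a GENCODE protein-coding gene record and whose mean raw count over both replicates, divided by interval length, is under 150 counts per kb. This quotient is called the density below. There were 758 such intervals among 11806 autosomal TSS intervals (6.42%), and the other 11048 are called stronger. The whole table held 119502 intervals. Because the density chose the members, their densities, counts and lengths are given as a description and carry no test.

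The assay was ATAC-seq, which uses Tn5 transposase to place adapters wherever DNA is exposed. It was run on live cells in which the red fluorescent protein mKate2 reports Olig2, the gene of a factor that specifies motor neuron progenitors. The cells derived from 1 mouse embryonic stem cell line (Olig2-mKate2) that was grown on fibroblast feeders and differentiated for 5 days with bFGF and LGK, then bFGF, CHIR99021, SB-431542 and DMH1, then 100 nM retinoic acid and 100 nM SAG, an agonist of Sonic hedgehog signalling; both libraries shared every step. The 2 replicates, of 50000 sorted mKate2+ cells each, formed 1 group, so no conditions could be compared. The libraries held 31876165 and 31672240 counts in all intervals, and the labels do not say whether they came from separate cultures.

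Most mammalian promoters fall into a pair of broad types. Promoters within CpG islands, stretches of DNA in which the CG pair has been spared from the loss that follows cytosine methylation, tend to be open in many tissues, including where their gene is silent. Promoters poor in CG pairs, some with a TATA box just before the start site, belong mostly to genes used in 1 or a few cell types and tend to open only there.

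Upstream sequences of a few members show the range of CpG content among them. Each is the 120 bases before the TSS in mm10, written 5′ to 3′ on the strand of the gene, with every CG pair in capitals. The CpG ratio, measured over the 250 bases on either side of the TSS, is the number of CG pairs over that expected from the base composition. The first set comprises the 4 members of lowest CpG ratio that hold TATAAA 40 to 20 bases before the TSS and a mean of at least 20 counts, and in these TATAAA is in capitals too.
Hdac9: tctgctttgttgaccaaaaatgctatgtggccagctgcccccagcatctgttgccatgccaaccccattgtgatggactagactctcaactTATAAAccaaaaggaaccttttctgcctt
Crp: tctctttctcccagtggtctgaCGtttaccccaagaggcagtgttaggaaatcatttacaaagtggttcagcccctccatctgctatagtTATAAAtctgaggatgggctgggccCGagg
Adamtsl2: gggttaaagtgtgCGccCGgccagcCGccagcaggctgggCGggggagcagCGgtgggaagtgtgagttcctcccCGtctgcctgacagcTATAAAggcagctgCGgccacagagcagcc
Kcnj13: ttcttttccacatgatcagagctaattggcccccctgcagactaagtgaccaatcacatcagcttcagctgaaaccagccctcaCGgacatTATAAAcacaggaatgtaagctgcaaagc
Hdac9, a class II histone deacetylase, lies at chr12:34917096-34917215 on the minus strand and has 0 CG pairs in this stretch. Crp, the acute-phase C-reactive protein made by liver, lies at chr1:172697935-172698054 on the plus strand and has 2. Adamtsl2, a secreted matrix glycoprotein, lies at chr2:27079259-27079378 on the plus strand and has 7. Kcnj13, an inwardly rectifying potassium channel, lies at chr1:87394730-87394849 on the minus strand and has 1.

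The next set comprises 4 members of high CpG ratio that hold a mean of at least 20 counts, without a requirement for TATAAA. They are shown because they lack the feature most members share. They are not the 4 highest of all members. Tac1 had a ratio of 0.860, and the interval shared by Ribc2 and Smc1b, not shown, had 0.951. By the classes used below, Trpv4 and Syt16 were high-CpG, and Magohb and Tac1 were intermediate.
Magohb: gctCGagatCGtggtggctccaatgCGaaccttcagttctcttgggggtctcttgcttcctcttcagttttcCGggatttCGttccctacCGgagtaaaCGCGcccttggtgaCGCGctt
Trpv4: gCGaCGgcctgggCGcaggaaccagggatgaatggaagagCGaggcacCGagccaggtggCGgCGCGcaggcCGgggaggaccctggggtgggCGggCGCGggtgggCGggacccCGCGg
Syt16: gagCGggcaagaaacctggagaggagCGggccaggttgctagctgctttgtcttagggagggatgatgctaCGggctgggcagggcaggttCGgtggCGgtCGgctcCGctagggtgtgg
Tac1: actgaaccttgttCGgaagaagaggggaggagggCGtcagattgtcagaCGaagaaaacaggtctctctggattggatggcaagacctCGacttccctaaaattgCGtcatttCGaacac
Magohb, a core protein of the exon junction complex, lies at chr6:131293245-131293364 on the minus strand and has 10 CG pairs. Trpv4, a calcium-permeable channel, lies at chr5:114658422-114658541 on the minus strand and has 15. Syt16, a synaptotagmin, lies at chr12:73997541-73997660 on the plus strand and has 7, and Tac1, the precursor of substance P, lies at chr6:7554759-7554878 on the plus strand and has 6.

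For comparison, 2 TSS intervals of high density are shown, those of Nutf2, which carries Ran into the nucleus, and Rfx1, a transcription factor.
Nutf2: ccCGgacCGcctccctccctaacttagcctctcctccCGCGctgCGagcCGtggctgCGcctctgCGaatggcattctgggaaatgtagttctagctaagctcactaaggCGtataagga
Rfx1: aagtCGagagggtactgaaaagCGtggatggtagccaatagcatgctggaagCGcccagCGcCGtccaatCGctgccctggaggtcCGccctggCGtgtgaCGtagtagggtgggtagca
Nutf2 lies at chr8:105860460-105860579 on the plus strand and Rfx1 at chr8:84066714-84066833 on the plus strand. Each has 9 CG pairs. The Nutf2 interval had 4493 and 4681 counts (4685 ± 136 counts per kb, SD, n = 2), and the Rfx1 interval 5753 and 5734 (4591 ± 10.7). The TATAAA members Hdac9, Crp, Adamtsl2 and Kcnj13 had 132 ± 30.6, 76.9 ± 5.86, 122 ± 7.23 and 149.6 ± 12.04 counts per kb. The members shown for their high CpG ratio, Magohb, Trpv4, Syt16 and Tac1, had 78.6 ± 0, 142 ± 3.61, 138 ± 10.8 and 94.9 ± 2.13 (SD, n = 2 each). The densities of both sets of members overlapped, but the rule confines every member to under 150 counts per kb, so nothing is concluded from this.

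The members were far from uniform. Their median density was 93.9 counts per kb in replicate 1 and 92.6 in replicate 2, and the median interval held a mean of 65.3 counts. Stronger TSS intervals had medians of 927 and 902 counts per kb, a ratio to the members of 9.81 ± 0.1 (SD, n = 2). Of the 758 members, 134 had a mean density under 50, 293 between 50 and 100, and 331 between 100 and 150 counts per kb. The limit cut through a continuous range. There were 148 TSS intervals within 25 counts per kb below the limit and 152 within 25 above it. The members made up 6.42% of the autosomal TSS intervals but held 0.429% and 0.435% of the counts in them. Distal elements, which overlap no protein-coding TSS, were not chosen by density, so setting the members beside them partly restates the limit. The median autosomal distal interval had 124 and 127 counts per kb in replicates 1 and 2. Of 105011 distal intervals 59.4% were under the same limit, and 65.4% exceeded the median member.

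**Figure D1:**
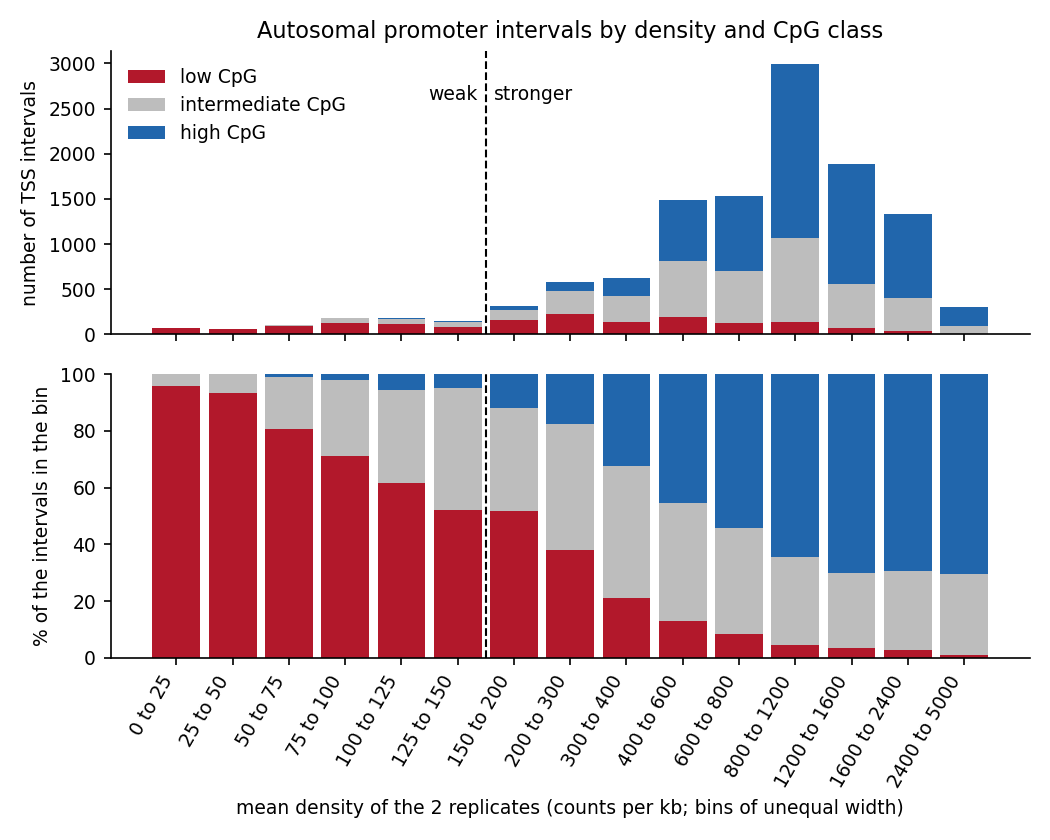
Autosomal TSS intervals in bins of mean density (counts per kb, bins of unequal width), split by the CpG class of the bases within 250 of the TSS. The upper panel gives numbers and the lower panel percentages, and the dashed line marks 150 counts per kb. The share of low-CpG promoters goes from 95.9% in the lowest bin to 52.03% just under the limit and 0.993% in the highest bin.

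At the bottom of the range were intervals with almost no fragments in the live cells. Trim12a, of the TRIM ubiquitin ligase family, and Slc28a2, a nucleoside transporter, were at 0 in each library, and a count of 0 leaves room for 3 counts at the 95% level. The interval of Cd53, a tetraspanin of leukocytes, had 1 and 0 counts (2.17 ± 3.07 counts per kb, SD, n = 2). Ifi208, of the interferon-inducible Ifi200 family, had 0 and 2 counts, and Trim30d, another TRIM gene, had 2 and 2. These 5, the lowest of the named genes with a single TSS, could not be ordered at this depth. The table's intervals were defined over 5 libraries, of which 3 were not analysed here, so an interval needs no fragments in the 2 libraries described. In these named intervals, apart from Cd53, part of the sequence was also repeated elsewhere in the genome. The share of 50-base words found once in mm10 was 38.3% at Slc28a2, 60.1% at Trim12a, 77.0% at Trim30d, 81.7% at Ifi208 and 100% at Cd53. Most low members were not like this, and among the 134 under 50 counts per kb the median share was 100%. Still, 27 of them (20.1%) were under 90%, the largest part of any range. This was 11.6% from 50 to 100 counts per kb, 9.37% from 100 to 150 and 2.66% at stronger intervals.

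At the other end, the largest counts came from long intervals. Acp4, an acid phosphatase, had 602 and 605 counts over 4530 bp (133 ± 0.468 counts per kb, SD, n = 2). Gfap, the intermediate filament of astrocytes, had 585 and 535 over 3849 bp (145 ± 9.19), and Cntfr, the ciliary neurotrophic factor receptor, had 514 and 511 over 3876 bp (132 ± 0.547). Sv2a, a synaptic vesicle protein, had 467 and 469 counts over 3160 bp, and Npb, the neuropeptide B gene, had 434 and 402 over 2996 bp. These intervals held as many counts as many stronger promoters and qualified through their length. At Cntfr 25.01% of the words were unique.

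Just inside the limit lay Kcnj13 with 58 and 65 counts (149.6 ± 12.04 counts per kb), Akap6, a protein kinase A anchor, with 198 and 177 (149.5 ± 11.8), and Rbfox1, a neuronal splicing factor, with 162 and 171 (149 ± 5.68; SD, n = 2 each). Just outside lay Gsdmd, the pore-forming gasdermin D, with 62 and 68 (150.1 ± 9.8), the protocadherin Pcdhga11 with 124 and 124 (150.5 ± 0), and Exosc10, a nuclease of the RNA exosome, with 239 and 165 (151 ± 39.2). Each of the 3 inside had a replicate above 150. The members next to the limit and their neighbours outside it were thus not separated by their replicates.

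The choice was therefore repeated with 1 replicate and read in the other, which the choice had not used. Replicate 1 alone chose 762 intervals, and 711 of them (93.3%) were under 150 counts per kb in replicate 2. Replicate 2 alone chose 763, and 711 (93.2%) were under the limit in replicate 1. The medians in the unused replicate, 93.3 and 94.2 counts per kb, were close to those in the replicate that chose, 94.1 and 93.2. The highest densities in the unused replicate were 222 and 257.

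No member differed between the replicates past the adjusted limit. The exact binomial test of the 2 counts called 0 of 758 members different after Benjamini-Hochberg adjustment over the whole table, at a limit of 0.01, and 0 of 119502 intervals in all (0%). At an unadjusted p under 0.05 there were 45 members (5.94%), against 8.39% of all intervals. With edgeR TMM factors the test also called 0 members, as it did with total counts. A 2-fold difference need not pass at the members' counts, and Pcdhga9, with 100 and 48, did not. Of the members, 23 (3.03%) were over 2-fold apart, against 2.66% of all intervals, and among the 700 with a mean of at least 10 counts 9 were. The SD of the log2 ratio was 0.39 at the members and 0.08 at stronger intervals. At matched counts it was 0.40 at the members and 0.30 at 22 stronger intervals with 20 to 50 counts, 0.28 and 0.29 with 50 to 100, and 0.18 and 0.17 with 100 to 200. The biological coefficient of variation, the spread beyond counting error that edgeR estimates, was 3.81% over the 700 members with a mean of at least 10 counts, 2.63% over the stronger and 3.11% over distal intervals.

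**Figure D2:**
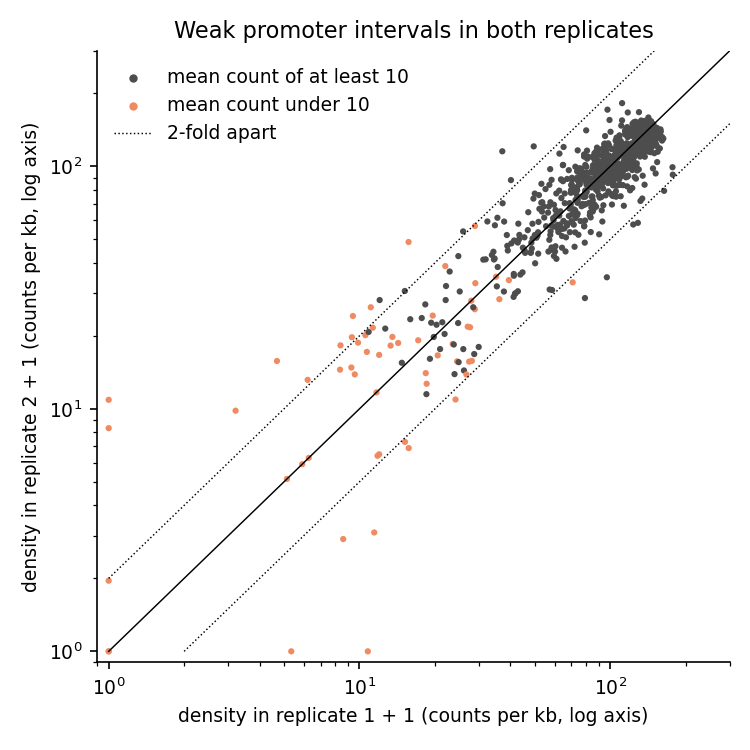
Density of each of the 758 members in replicate 1 and replicate 2 (counts per kb plus 1, log axes), with equality as a solid line and 2-fold differences as dotted lines. Points lie along the solid line, and the 23 members over 2-fold apart are mostly those with a mean under 10 counts.

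The 2 members furthest apart among those with a mean of at least 50 counts were variable exons of the gamma protocadherin cluster. Pcdhga1 had 69 and 31 counts (log2 ratio -1.13, exact binomial p = 0.00013, adjusted p = 0.141), and Pcdhga9 had 100 and 48 (log2 ratio -1.04, exact binomial p = 1.67e-05, adjusted p = 0.0546). Both were lower in replicate 2. Next came Ttc30a2, an intraflagellar transport gene, with 70 and 39 counts, the olfactory receptor Olfr1432 with 75 and 46, and Podnl1, a small proteoglycan gene, with 42 and 66. At Ttc30a2 and Olfr1432 the unique words made up 48.0% and 46.4%. None of the 5 passed the adjusted limit.

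Sequence at the TSS, which the rule did not use, separated the members from stronger promoters. The median CpG ratio was 0.337 at the members (quartiles 0.214 and 0.506) and 0.796 at stronger intervals (0.656 and 0.911). The median GC content was 54.7% and 63.5%. Promoters were called low-CpG at a ratio under 0.48, high-CpG at a ratio over 0.75 with at least 55% GC, and intermediate otherwise. Of the members 536 (70.7%) were low, 200 (26.4%) intermediate and 22 (2.90%) high. Of stronger intervals 9.81% were low and 56.4% high. The low-CpG share was higher at the members on 19 of 19 autosomes, from 50% to 86.6% against 7% to 14.5%. Promoters are not replicates of one another, so no p is attached to this difference.

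Within the members the low-CpG share followed density. It was 94.8% of the 134 members under 50 counts per kb, 74.7% of those from 50 to 100 and 57.4% of those from 100 to 150, and the median ratio was 0.255, 0.34 and 0.424. High-CpG promoters numbered 0, 5 and 17 in these ranges. Of the 134 lowest members only 77 had a mean of at least 10 counts. Intervals could also enter the table through the libraries not analysed here, so the lowest range may hold some that were not open in these cells. Among all members with a mean of at least 10 counts the low-CpG share was 68.6%. No step appeared at the limit: from 150 to 200 counts per kb 51.6% of intervals were still low-CpG. Read the other way, 33.1% of 1620 low-CpG TSS intervals were members, against 5.09% of 3932 intermediate and 0.352% of 6254 high-CpG ones. The members also lay between 2 other states when genes were counted. Of 20807 autosomal protein-coding genes, 777 (3.73%) had their TSS in a member, 12285 in a stronger interval and 7745 in no interval, and the median CpG ratios were 0.337, 0.797 and 0.180.

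**Figure D3:**
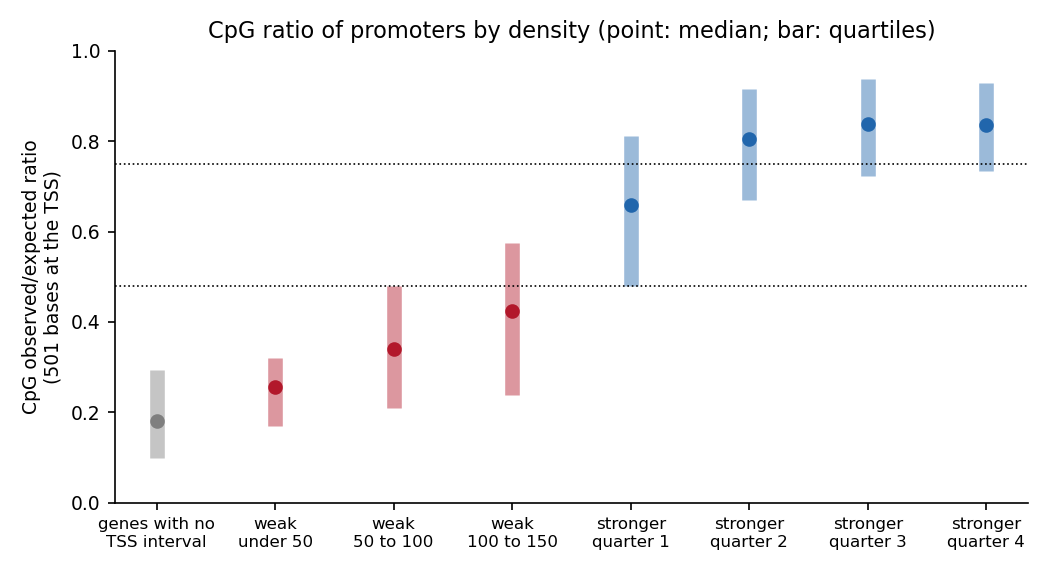
CpG observed/expected ratio within 250 bases of the TSS for genes with no TSS interval, for the members in 3 density ranges (counts per kb) and for stronger TSS intervals in 4 equal groups of rising density. Points are medians, bars run between the quartiles, and the dotted lines mark 0.48 and 0.75. Medians of the members go from 0.255 to 0.424, between genes with no interval (0.180) and the lowest group of stronger intervals (0.658).

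The 22 high-CpG members were the exceptions, and several are genes of the germ line. Mael, which acts in piRNA silencing of transposons, had 33 and 21 counts (67.7 ± 21.3 counts per kb, SD, n = 2), and Dmc1, the meiotic recombinase, had 109 and 72 (98.9 ± 28.6). Hsf5, a heat shock factor of spermatocytes, had 78 and 64 counts, and Stk31, a kinase-domain protein of germ cells, had 33 and 28. An interval shared by Smc1b, a meiotic cohesin subunit, and Ribc2 had 123 and 113, and one shared by Dmrtc2 and Lypd4 had 146 and 133. Homeobox genes of other tissues were among them too. Cdx1, a caudal-type gene of the posterior embryo, had 255 and 236 counts (119 ± 6.51), and Irx4, an Iroquois gene of the heart, had 129 and 110 (132 ± 14.8). These 8 intervals were named after their values were seen. Most of the 22 belonged to neither group, among them Trpv4, Abcc8, Slc6a7, Slc35d2, Rbfox1 and Krt87. The share of germ-line genes among all high-CpG promoters was not counted, so no trait of the 22 is read from these names.

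Short motifs were searched in the window from 250 bases before to 50 after the TSS of each gene. TATAAA starting 40 to 20 bases upstream on the sense strand was found at 2.06% of the 777 genes with a member, 0.822% of genes with a stronger interval, 5.15% of genes with none and 2.48% of all. The other motifs were searched on both strands. GGGCGG, the GC box bound by Sp factors, was at 31.1% of the members' genes against 66.2%, 9.34% and 43.7% in the same order. CCGGAAG, a core bound by Ets factors such as GABPA, was at 5.28% against 16.9%, 2.26% and 11.03%. AAGATGGC, the core bound by YY1, was at 0.901% against 4.12%, 1.25% and 2.93%. For these 3 motifs the members' genes were below those with stronger intervals. Among low-CpG genes alone GGGCGG was at 22.3% against 30.9% and 7.99%, and CCGGAAG at 4.56% against 5.88% and 1.77%. CCAAT, the NF-Y core, was at 30.2%, below genes with stronger intervals (38.5%) and with none (39.5%).

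A pair of motifs linked to blood cells and interferon was more frequent at the members' genes than at those with stronger intervals, and near the share at genes with none. GAGGAAGT, bound by the myeloid and lymphoid factor PU.1, was at 5.02% of the members' genes against 2.29% with a stronger interval, 4.62% with none and 3.26% of all. Among low-CpG genes alone these were 6.57%, 2.33% and 4.75%. AAANNGAAA, part of the element bound by interferon regulatory factors, was at 14.03%, 7.33%, 14.7% and 10.3%, and among low-CpG genes at 16.8%, 10.7% and 14.5%. The RE1 element of the repressor REST was at 0 of 777, 11 of 12285 and 1 of 7745 in the strict form searched. A match is a run of letters, and binding was not measured.

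Immune genes were described by 2 lists. Of 86 CD antigen genes, surface proteins first catalogued on leukocytes, 12 had a member at their TSS, 22 a stronger interval and 52 none. The 12 ran from Cd53 (2.17 ± 3.07 counts per kb) to Cd79a, a chain of the B-cell receptor, with 262 and 253 counts (111 ± 2.73; SD, n = 2 each), and 6 were under 50. Of 128 genes for chemokines, interleukins and their receptors, 12 had a member, 27 a stronger interval and 89 none. In that list Ccl3, a macrophage chemokine, was lowest with 10 and 4 counts (10.3 ± 6.25) and Il12rb2, a subunit of the interleukin-12 receptor, highest with 77 and 67 (145 ± 14.3). These shares, 13.95% and 9.38%, compare with 3.73% of all genes. Low-CpG promoters made up 76.7% and 82.8% of the 2 lists, beside 42.8% of all genes. Among their genes with a TSS interval 35.3% and 30.8% had a member, near the 33.1% of all low-CpG TSS intervals that were members. The shares are therefore not read as a trait of immune genes apart from CpG content.

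A list of 53 leukocyte genes, added after the values were seen and therefore no independent evidence, had 22 genes with a member, 2 with a stronger interval and 29 with none. All 22 had low-CpG promoters, with a median ratio of 0.276, and 14 were under 50 counts per kb. They included receptors and their adaptors: Itgb2, the beta chain of leukocyte integrins, had 4 and 5 counts, Fcer1g, an Fc receptor chain, had 9 and 12, and Cd74, the invariant chain of antigen presentation, had 50 and 40. Genes of cytotoxic lymphocytes were among them. Gzmb, a cytotoxic granule protease, had 6 and 4 counts, and Nkg7, a granule protein, had 18 and 15. Selplg, the ligand of P-selectin, was highest with 260 and 235 (114 ± 8.14 counts per kb, SD, n = 2). Ikzf1 and Lcp1 had the 2 stronger intervals, of 682 ± 14.1 and 744 ± 16.5.

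Another added list, of 38 interferon-induced genes and likewise no independent evidence, had 14 with a member, 14 with a stronger interval and 10 with none. Of the genes with a TSS interval 50% had a member in this list and 91.7% in the leukocyte list, beside 5.95% of all genes. Low-CpG promoters made up 71.1% of this list and 98.1% of the leukocyte list, beside 42.8% of all genes. All 14 members were low-CpG, with densities from 17.7 ± 10.7 counts per kb at Ifi27, with 2 and 5 counts, to 136 ± 4.11 at Irgm1, an immunity-related GTPase with 191 and 183 (SD, n = 2 each). Effectors of the antiviral response lay between them: Rsad2 had 15 and 15 counts, Zbp1, a sensor of Z-form nucleic acid, had 62 and 61, and Mx1 had 57 and 44. The chemokine Cxcl10 had 27 and 25. Stat2 and Irf1, transcription factors that relay the signal, had stronger intervals of 1958 ± 4.84 and 1082 ± 25.01 counts per kb.

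**Figure D4:**
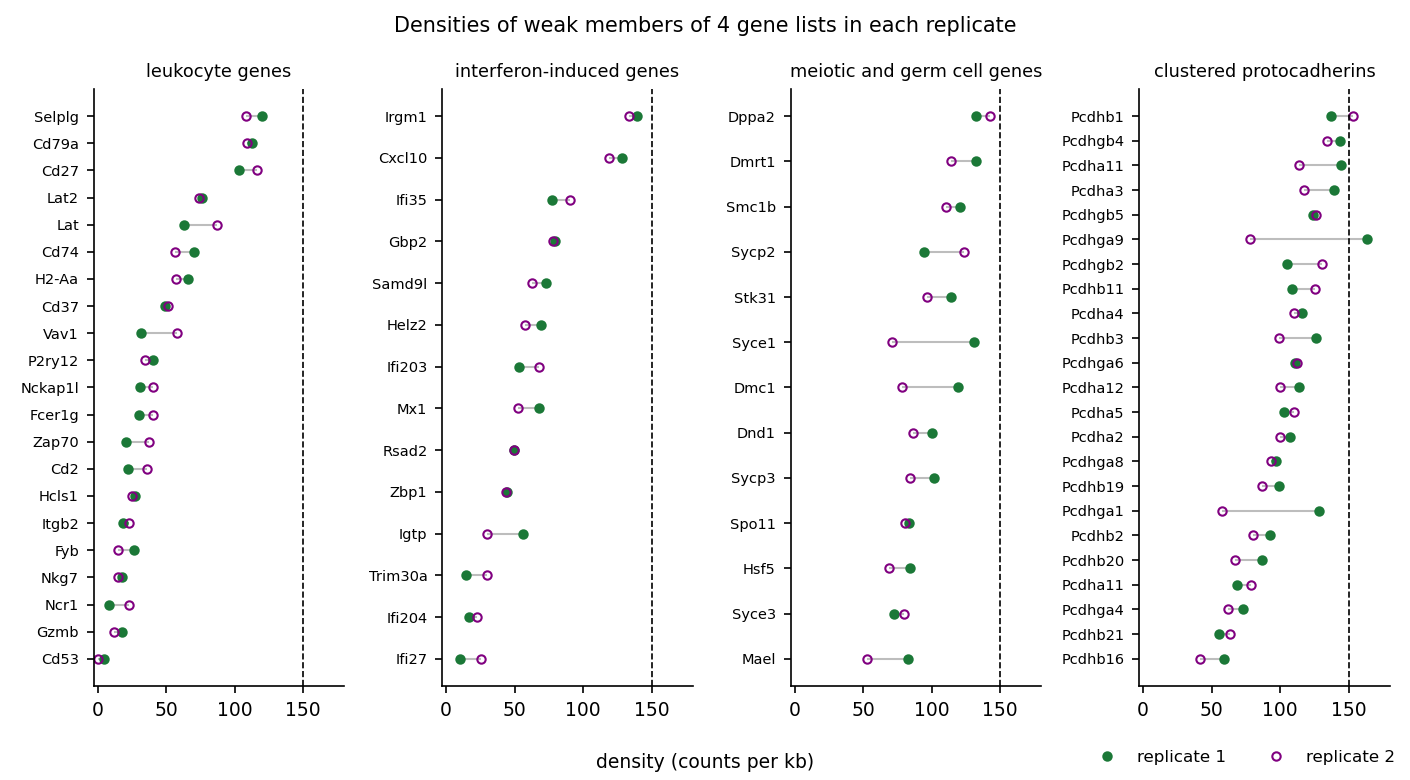
Density (counts per kb) of the members of 4 gene lists in replicate 1 (filled) and replicate 2 (open), with the 150 limit dashed and 1 leukocyte gene not drawn. Leukocyte members start near 0, germ cell and protocadherin members all have mean densities above 50, and the widest replicate gaps are at Pcdhga9 and Pcdhga1.

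Of 35 meiotic and germ cell genes in the last added list, also chosen after the values were seen, 13 had a member, 8 a stronger interval and 14 none. Their densities ran from 67.7 at Mael to 138 ± 7.22 counts per kb at Dppa2, a factor of early embryos and germ cells with 91 and 98 counts (SD, n = 2). Spo11, which makes the DNA breaks of meiosis, had 106 and 103 counts, Sycp3 of the synaptonemal complex 35 and 29, and Dmrt1, a testis transcription factor, had 123 ± 12.9 counts per kb. None was under 50, and 4 were low-CpG, 4 intermediate and 5 high, with a median ratio of 0.613. A list of 79 germline and testis genes picked by name had 4 with a member (5.06%, beside 3.73% of all genes), 31 with a stronger interval and 44 with none. Of its 4 members 1 was under 50 counts per kb and 1 was high-CpG. In that list the member Tex48 was lowest with 24 and 17 counts and Sycp2 highest with 68 and 89.

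The clustered protocadherins, cell-surface adhesion proteins of neurons with many promoters, gave the largest share of all listed genes among the lists not added later. Among genes with a TSS interval the keratins had 71.4% and the protocadherins 65.7%. Low-CpG promoters made up 92.9% of the keratin list and 40.4% of the protocadherin list, beside 42.8% of all genes. Of 57 protocadherin gene records 23 (40.4%) had a member, 12 a stronger interval and 22 none, where Pcdha11 is recorded under 2 identifiers. Densities ran from 50.2 ± 12 counts per kb at Pcdhb16, with 45 and 32 counts, to 145 ± 11.5 at Pcdhb1, with 126 and 141 (SD, n = 2 each). Of the 23, 10 were low-CpG and 13 intermediate. Of the C-type promoters at the ends of the alpha and gamma clusters 4 were stronger, with 461 ± 33.2 at Pcdhac1, 656 ± 3.62 at Pcdhac2, 887 ± 26.1 at Pcdhgc3 and 448 ± 7.31 at Pcdhgc4. The alternate promoters of the gamma cluster were divided, and 8 of them had stronger intervals from 150.5 at Pcdhga11 to 291 ± 26.5 at Pcdhga3.

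Of 43 collagen genes 6 (13.95%) had a member, the same share as of the CD antigens, from Col7a1, the anchoring fibril collagen, with 152 and 195 counts (85.8 ± 15.04 counts per kb, SD, n = 2), to Col24a1, a fibrillar collagen, with 229 and 278 (139 ± 18.9). Of 358 solute carriers 22 (6.15%), of 131 cation channel genes 8 (6.11%) and of 385 Zfp zinc finger genes 13 (3.38%) did, beside 3.73% of all genes. The channel list is headed voltage-gated channels but also holds genes of other channel types, such as Kcnn4 and Kcnj13. The solute carriers ran from Slc28a2 to Slc12a7, a potassium-chloride cotransporter with 133 and 115 counts. The channels ran from Kcnn4, a calcium-activated potassium channel with 38 and 32 counts, to Kcnj13. The zinc finger genes ran from Zfp951 with 11 and 13 to Zfp874a with 119 and 133. Of 81 neurotransmitter receptor genes 3 did: Chrna6 and Chrna10, nicotinic receptor subunits, with 49 and 48 and with 109 and 124 counts, and Htr2a, a serotonin receptor, with 143 and 148. Among 100 cytochrome P450 genes 5 had a member, from Cyp2c39 with 31 and 28 counts to Cyp4f15 with 108 and 95, while 76 had no interval. Among 113 keratin and keratin-associated genes 5 did, with Krtap17-1, of hair, lowest at 57 and 48 counts and Krtcap3, a membrane protein grouped here by its name, highest at 282 and 292.

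Several lists held 1 member or none, or a small share. Of 1457 olfactory and vomeronasal receptor genes 7 (0.4804%) had a member and 1442 no interval. Of the 15 with a TSS interval 46.7% had a member, beside 5.95% of all genes, and Olfr46 and Olfr11 had 28 and 28 and 30 and 30 counts. Low-CpG promoters made up 99.7% of this list, beside 42.8% of all genes. Of 60 serpins 1 did (Serpina3g, 3 and 7 counts), of 45 muscle contractile genes 1 (Tnnt1, 74 and 72) and of 39 Hox genes 1 (Hoxd12, 134 and 152). All 17 liver secreted protein genes had no interval. Of 96 cytosolic ribosomal protein records, 49 proteasome subunits and 21 neural progenitor factors 0 had a member, and 81, 41 and 19 had a stronger interval. Of 28 master regulators of other lineages only Runx1, of blood, did, with 6 and 11 counts. Beside 3.73% of all genes, the shares were 1.67% of the serpins, 2.22% of the muscle genes, 2.56% of the Hox genes and 3.57% of the master regulators. Lists this short would hold few members at the share of all genes, so counts of 0 or 1 are not read as a trait of these families.

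**Figure D5:**
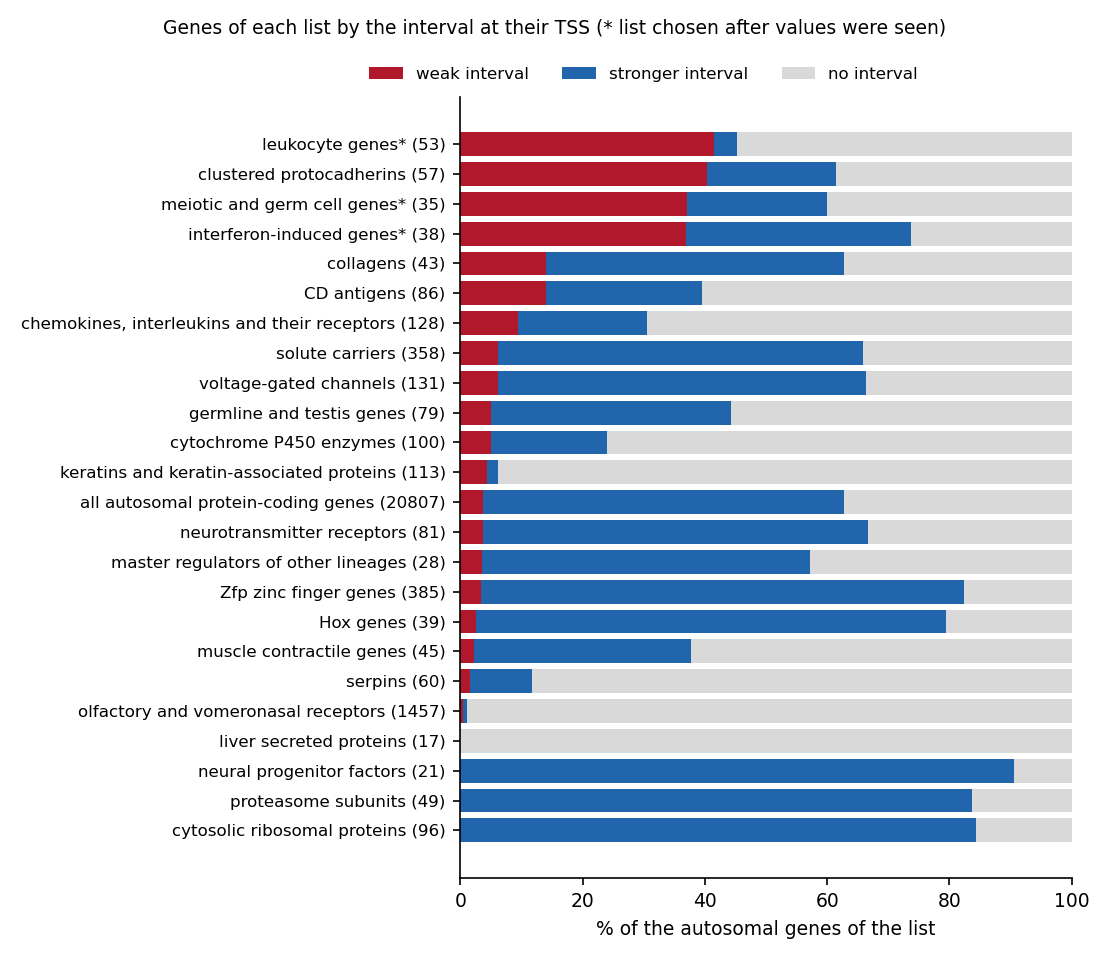
Percentage of the autosomal genes of each list whose TSS lies in a member, in a stronger interval or in no interval, with the number of genes in brackets and lists chosen after the values were seen starred. The protocadherins (40.4%) and the 3 starred lists stand furthest above the 3.73% of all genes.

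The Runx1 start was 1 of a set of members whose gene has another annotated start that was open. In 82 of 758 members (10.8%) another transcript of the gene began in a different interval of at least 150 counts per kb, and this share was 9.80% for stronger intervals. The density of the other start was 1.14 to 118 times that of the member, with a median of 5.97, and the median distance was 15.5 kb. Members are under 150 counts per kb and the other start was required to reach it, so every ratio had to exceed 1. For Pnrc1, a nuclear receptor coactivator, the member had 15 and 16 counts and the start 42.0 kb away 3856 and 3712 (2498 ± 67.2 counts per kb). For Hdac4, a class II deacetylase, they were 62 and 68 against 3345 and 3215, and for Evi5, a Rab GTPase-activating protein, 30 and 30 against 2284 and 2259. Hnrnpf, a splicing regulator, had 33 and 34 against 3671 and 3633, and Tnip1, an inhibitor of NF-kappaB signalling, 26 and 41 against 1312 and 1292. Runx1 itself had 748 ± 48.3 counts per kb at a start 128 kb away.

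The same held for a regulator of the neural tube. The 5′-most start of Notch1, the receptor that keeps progenitors undifferentiated, had 56 and 51 counts (45.2 ± 2.99 counts per kb), and its other start 14.3 kb away had 5955 and 5921 (1496 ± 6.06; SD, n = 2 each). For such genes the member describes the record's outermost start and not the gene as a whole. Without the 82, 676 members were left, and their median CpG ratio was 0.342.

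Some members lay side by side. Counting along each autosome, 62 members were in 16 runs of at least 3 TSS intervals that were all members. The longest were on chromosome 18, with 8 beta protocadherins from Pcdhb1 to Pcdhb21 over 249 kb, 7 in the alpha cluster over 83.4 kb and 4 in the gamma cluster over 17.1 kb. On chromosome 1 a run of 4 covered Ifi208, Ifi204, Ifi211 and the start shared by Ifi203 and Mndal, from 3.66 to 110 counts per kb over 270 kb. On chromosome 11 the neighbouring chemokine genes Ccl5, Ccl3 and Ccl4 had 7 and 3, 10 and 4, and 9 and 7 counts. On chromosome 13 a run of 4 held the zinc finger genes Zfp456 (which shares its interval with Gm28041), Zfp429, Zfp459 and Zfp874a, from 71.4 to 139 counts per kb.

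The share of members among TSS intervals ranged from 3.90% on chromosome 19 to 11.9% on chromosome 18, where 39 of the intervals were members. Without the protocadherin intervals it was 5.48% on chromosome 18. Chromosome 1, with 67 members, had 9.34%, and chromosome 8 had 4.30%.

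Distal elements around the members were also measured, which the rule did not use although they share its libraries. Within 50 kb the members had a median of 6 distal intervals, as did stronger intervals, and 39 members (5.15%) had 0, against 2.33%. The median distal density near the members was 126 ± 1.93 counts per kb and near stronger intervals 137 ± 0.878 (SD, n = 2), and the ratio of the latter to the former was 1.09 in replicate 1 and 1.07 in replicate 2. On 12 of 19 autosomes it was lower near the members, so the difference did not hold on every chromosome. Near members under 50 counts per kb it was 111, near those from 50 to 100 it was 121 and near those from 100 to 150 it was 132. Near stronger intervals, in 4 equal groups of rising density, it was 141, 137, 134 and 129, so it did not rise with promoter density throughout.

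The members were shorter, with a median of 751 bp against 1252 bp, which is part of the rule's quotient. Under 500 bp were 29.3% of the members and 1.37% of stronger intervals, and over 1500 bp 16.2% and 32.05%. The median gene with a member had 7 exons and with a stronger interval 9. Another interval lay within 1 kb of 11.9% of the members and 3.95% of stronger intervals. In 92 members (12.1%) under 90% of the 50-base words were unique in mm10, against 2.66% of stronger intervals, and in 34 under 50% were. How multi-mapping fragments affected those counts was not tested. Without the 92, 666 members had a median CpG ratio of 0.336 and a low-CpG share of 71.8%.

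Markers of several cell types lay mostly outside the set. All 6 neural progenitor markers, Olig2, Nkx6-1, Pax6, Sox2, Sox1 and Irx3, had stronger intervals. They ran from 187 ± 3.68 counts per kb at Pax6 to 1498 ± 72.4 at Sox1 (SD, n = 2 each). The paper assigns Irx3 to another progenitor domain than Olig2, so its open promoter does not mark the sorted type. Of 4 pluripotency markers only Esrrb was a member, with 92 and 96 counts, while Zfp42 had 237 ± 5.01 and Pou5f1 and Nanog had no TSS interval. Of 5 fibroblast markers, chosen because the stem cells grew on feeders, only Col1a2 was a member, with 263 and 238 counts (123 ± 8.69), Thy1 had 248 ± 1.69, and Col1a1, Col3a1 and Pdgfra had none. Of 5 motor neuron markers none was a member, 4 had stronger intervals and Chat had no TSS interval. The paper states that cells sorted by the reporter will include new motor neurons and some cells positive for both OLIG2 and NKX2.2. Open motor neuron promoters therefore cannot be assigned to progenitors here. A low density can come from few cells with an open promoter or from a small opening in many, and bulk libraries cannot tell these apart.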

How the data were processed

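ATAC-seq was measured in 2 replicate libraries of 1 group. The values that the authors deposited were unnormalised fragment counts per interval, with positions in mm10. Per the file headers, they were made with featureCounts 2.0.1, which counted a read pair in every interval that it overlapped by at least 0.2 of its length. The aligner version was not given in the sources used here. The interval set covered 5 libraries. The 3 columns of the other libraries belonged to no sample given and were not used, and fixed cells were not analysed here. Precision is limited by depth: fragments carried no molecular identifiers, so limits cover counting error only.

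Densities were raw counts per kb. Replicates were compared after division by DESeq2 (1.42.0) size factors, with a pseudocount of 1 for log2 ratios, by a two-sided exact binomial test per interval with Benjamini-Hochberg adjustment over the whole table. This test compares libraries, not conditions, and its p-values measure departure from counting error, with no estimate of the spread between samples. It was checked on simulated counts, with 2-fold changes set only at means of at least 100 counts, above the median member. Some of those changes near that mean were missed, the pass mark was then moved to higher counts, and detection at the members' typical counts was not simulated. edgeR (4.0.16) gave TMM factors and the coefficient of variation. TSSs came from GENCODE vM21 and sequence from the RefSeq copy of the same assembly. Sequences were read with pysam 0.24.0, and tables were handled in R 4.3.3 and in pandas 2.3.3 under Python 3.11.15 with scipy 1.17.1.

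The members and lists were chosen with earlier results of these data known, and 3 of the 23 lists after the members' values were seen. Among intervals with 1 protein-coding TSS and a named gene, the text names the 5 members of highest count, the 5 of lowest density, the 3 on either side of the limit, the 5 furthest apart between replicates with a mean of at least 50 counts, the 5 with the strongest other start, and the lowest and highest of each list (all where it had 3 or fewer). A few genes are not reported here. Other genes named were chosen after their values were seen. Alternatives covered the normalisation, the limit, the TSS definition, low counts, the window, and leaving out each replicate.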

Additional observations from a re-analysis of the deposited data

How the results depend on the processing

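A value was taken as moved if it changed by more than the SD between replicates (between autosomes for the SD of the log2 ratio), beyond the 95% Wilson limits for a share, or by over 1.5 times for a count. The SDs were small, so small changes count, and 44 of 75 alternatives left the value in place. DESeq2 or TMM factors moved none. The cause was not tested where values moved, apart from the change in which intervals enter. No paired analysis was possible because both libraries belong to 1 group.

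The 758 members became 427 with a limit of 100 counts per kb and 1296 with the TSS of every protein-coding transcript, and were 762 or 763 with 1 replicate left out. The median CpG ratio of 0.337 became 0.302 with a limit of 100, 0.377 with 200, 0.318 with transcript TSSs, 0.355 with a mean of at least 10 counts, 0.348 with the TSS at least 50 bases inside, 0.336 over the whole interval and, in alternatives chosen after seeing the data, 0.336 with at least 90% unique words and 0.342 without a stronger start; it was 0.337 and 0.338 with 1 replicate left out. The low-CpG share of 70.7% became 81.03% and 65.1% with limits of 100 and 200, 77.1% with transcript TSSs and 75.7% over the whole interval, and was 70.4% and 70.6% with 1 replicate left out. The median length of 751 bp became 651, 842, 695.5, 796 and 818 bp with limits of 100 and 200, transcript TSSs, a mean of at least 10 and the TSS 50 bases inside, and 747.5 and 752 with 1 replicate left out. The share with a stronger start of the same gene went from 10.8% to 35.03% with transcript TSSs, and was 10.4% and 10.8% with 1 replicate left out. The median distal density of 127 became 117, 129.7, 122, 128.5 and 125.7 under the same 5 settings as length, and 126 and 127 with 1 replicate left out. The 23 members over 2-fold apart became 9 with a mean of at least 10, and the SD of the log2 ratio went from 0.39 to 0.26 with a pseudocount of 10.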
